A study of Homo sapiens with 38 samples.

Results

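The genes described here are 10 regulators of the G1 phase of the cell cycle: the D cyclins CCND1, CCND2 and CCND3, the kinases CDK4 and CDK6, their target RB1, and the inhibitors CDKN1A, CDKN1B, CDKN2C and CDKN2D. They were set by name, and every GATA3, BHLHE40 or H3K27ac region within 50 kb of the RefSeq record of each gene was taken. This gave 386 of 168784 regions: 99 of 29009 for GATA3, 92 of 26205 for BHLHE40 and 195 of 113570 for H3K27ac. The cells were Jurkat, an established human T-cell acute leukaemia line (T-ALL), carrying a control lentivirus (Ctrl_LV) and stimulated with 50 ng/ml PMA and 500 ng/ml ionomycin, which together mimic signalling from the T-cell receptor. The stimulation lasted 5 hours by the sample labels and 2 hours by the treatment protocol. Chromatin immunoprecipitation and sequencing (ChIP-seq) was done with antibodies to the transcription factor GATA3, to the basic helix-loop-helix factor BHLHE40, and to H3K27ac, a histone mark of active promoters and enhancers. Each of these 3 groups had 2 samples and was deposited as 1 list of regions, so there is no value per sample, no spread between samples and no test between conditions. The other 16 of 19 groups, with base-edited cells and BHLHE40-over-expressing cells among them, were not analysed here. At the starts of 8 T-lineage marker genes an H3K27ac region with a −log10 q of at least 5 was found in 8, and at the starts of 8 markers of other blood lineages in 0. Of all protein-coding genes 49.2% had such a region at a start. Without that threshold the counts were 8 and 1, the latter CD79A.

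Cyclins D1, D2 and D3 bind CDK4 or CDK6, and the active kinase phosphorylates the retinoblastoma protein RB1, which releases E2F factors that drive genes for DNA synthesis. The INK4 proteins p18 (CDKN2C) and p19 (CDKN2D) bind CDK4 and CDK6 directly, whereas p21 (CDKN1A) and p27 (CDKN1B) bind cyclin and kinase complexes more widely. Developing T cells rely on cyclin D3 and CDK6, and many T-cell leukaemias depend on them. The signal value of a region is the authors' measure of its enrichment, and its rank is given within its own list as the percentage of regions that are as strong or stronger. Positions are on GRCh38, and only gene records were used, so exons, introns and untranslated regions were not told apart.

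The regions were spread very unevenly over the genes. CDK6 held 51 GATA3, 39 BHLHE40 and 71 H3K27ac regions, and RB1 held 24, 17 and 42. These genes have the longest records, 231653 and 178140 bp, and together they held 75.8% of the GATA3 and 60.9% of the BHLHE40 regions. Without CDK6 the totals were 48, 53 and 124. Many H3K27ac regions had a low −log10 q. A −log10 q of at least 5 was reached by 87 of the 195, a larger share than the 28551 of 113570 in the whole list. CDK6 held 38 of these 87. CCND3, with a record of 115103 bp, followed with 9 GATA3, 10 BHLHE40 and 18 H3K27ac regions. The other 7 genes held 0 to 4 GATA3 regions and 2 to 7 BHLHE40 regions each, and only CCND1 held no GATA3 region. Of all 20050 protein-coding genes, 76.1% had a GATA3 region in such a window, 80.0% a BHLHE40 region and 92.6% an H3K27ac region, so that 9, 10 and 10 of 10 members say little by themselves.

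**Figure D1:**
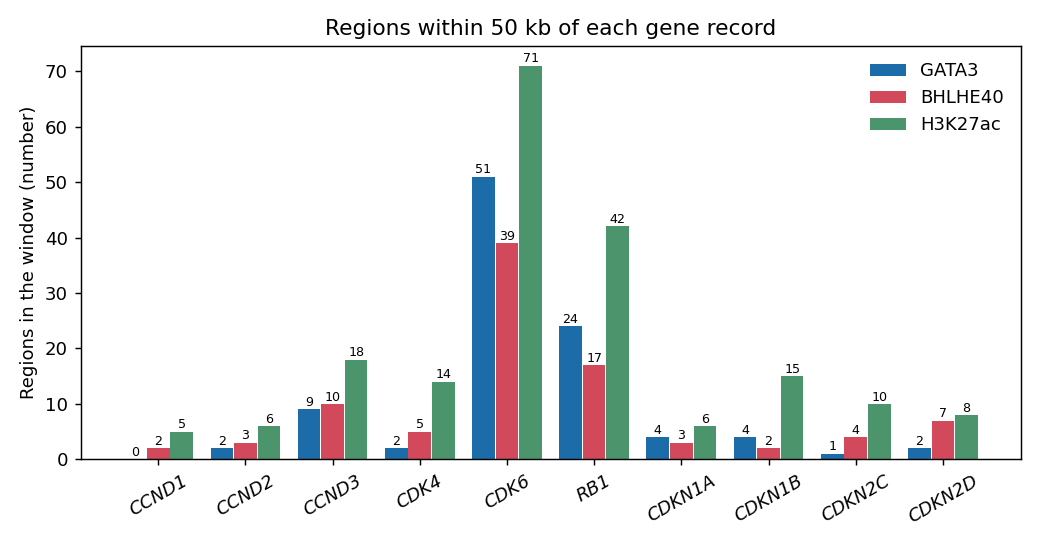
Number of regions of each list (bars: GATA3, BHLHE40, H3K27ac) within 50 kb of each of the 10 gene records. CDK6 stands highest in all 3 lists with 51, 39 and 71 regions, RB1 follows with 24, 17 and 42, and CCND1 has 0 GATA3 regions.

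Counts per 100 kb of window were used to compare genes of unequal length. The median member had 2.78 GATA3, 4.08 BHLHE40 and 8.57 H3K27ac regions per 100 kb, beside medians of 0.992, 1.62 and 5.91 over all protein-coding genes. CDK6 had the largest number of GATA3 regions of any protein-coding gene in these lists, and on density it stood above 99.995% of them. Its BHLHE40 count was the second largest. RB1 stood above 99.5% of genes by GATA3 density, CCND3 above 92.8% and CDKN1B above 90.8%, whereas CDKN2C stood above 40.7%. By BHLHE40 density CDKN2D was next to CDK6, above 96% of genes.

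At the starts of the genes the lists differed. A start was taken as the 5′ end of the record or a start in the RefSeq promoter table. For CCND1 and CCND2, which the table does not list with a strand, either end of the record was used. A BHLHE40 region lay within 1 kb of a start in 8 of 10 members, all except CCND1 and CDKN1A, where the background over all protein-coding genes was 47.7%. An H3K27ac region was found there in 7 members, all except CCND1, CCND2 and CDKN1A, with a background of 56.1%. The same 7 remained at a −log10 q of at least 5, where the background was 49.2%. A GATA3 region was found in 4 members, CCND2, CCND3, CDK6 and RB1, with a background of 22.7%. The one at CCND3 had its summit 637 bp from the CCND3 start and 148 bp from an end of the TAF8 record. All 4 of these members also had BHLHE40 there. Of 20050 protein-coding genes 4544 had GATA3 within 1 kb of a start and 4227 (21.1%) had both factors. Most genes with GATA3 at a start thus had BHLHE40 as well. With 10 genes these shares are a description, and none was tested. Among the inhibitors, 0 of 4 had GATA3 within 1 kb of a start and 3 of 4 had BHLHE40.

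**Figure D2:**
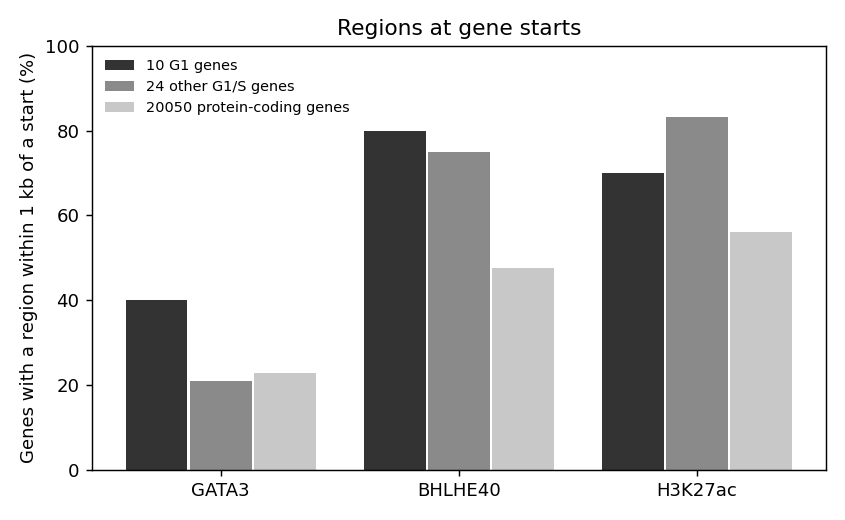
Percentage of genes with a region of each list within 1 kb of a gene start, for the 10 G1 genes, for 24 other genes of the G1/S pathway and for 20050 protein-coding genes. BHLHE40 is at 80% of the 10 genes and 47.7% of all genes, and GATA3 at 40% and 22.7%.

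CDK4 (record chr12:57747727-57752310, minus strand), a kinase partner of the D cyclins, had the strongest BHLHE40 region at a start among the members. It spanned chr12:57752019-57753096 with a signal value of 28.6, within the strongest 5.66% of its list, and its summit lay 211 bp upstream of the CDK4 start. The 250 bases before that start, chr12:57752311-57752560 on the minus strand in the RefSeq promoter table (GRCh38.p14), are printed because the summit falls on a motif in them. Capitals mark every CANNTG, the general E-box, which includes CACGTG, the E-box that BHLHE40 is known to bind.
CDK4: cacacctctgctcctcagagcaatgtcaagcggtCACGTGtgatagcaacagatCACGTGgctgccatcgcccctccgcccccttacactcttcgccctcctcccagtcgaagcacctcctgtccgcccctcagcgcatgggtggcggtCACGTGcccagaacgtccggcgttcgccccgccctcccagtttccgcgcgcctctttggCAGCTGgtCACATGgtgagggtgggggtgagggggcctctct
The stretch held CACGTG 3 times, beginning 216, 196 and 101 bases before the start. The BHLHE40 summit lay inside the first of these, 15 bp from the second and 110 bp from the third. Windows of 300 bases with 3 or more CACGTG made up 0.0940% of the promoter table (33 of 35116). H3K27ac lay on both sides of the start, with summits 134 bp downstream (signal value 6.04) and 520 bp upstream (signal value 3.51). The other 4 BHLHE40 regions and both GATA3 regions of the CDK4 window lay near other genes. The GATA3 regions, with signal values of 15.3 and 11.4, had their summits 138 bp from an end of the METTL1 record and 66 bp from the TSFM start.

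BHLHE40 summits also fell inside the promoter window (250 bases before a start to 50 after) of CCND3, CDK6, CDKN1B, CDKN2C and CDKN2D, so 6 of the 8 members in the table had this. Counted by window this was 7 of 13, beside 6705 of 35116 in the whole table. The share of all genes with such a window was not computed. Matches were looked for exactly and on both strands. Across the table CACGTG was found in 7.26% of 35116 windows, in 13.5% of the 6705 windows with a BHLHE40 summit and in 5.37% of the 23679 windows with no BHLHE40 region. Of the members CDK4, CDKN2C and CDK6 held it. The CDK6 match lay after the start and outside any BHLHE40 region. The stretches printed next reach 50 bases to each side of the BHLHE40 summit at the strongest such place of CCND3, CDKN1B, CDKN2C and CDKN2D, and show how these places differ from CDK4: CACGTG is in none of them.
CCND3: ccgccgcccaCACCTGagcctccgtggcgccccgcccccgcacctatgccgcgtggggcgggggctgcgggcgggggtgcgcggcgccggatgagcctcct
CDKN1B: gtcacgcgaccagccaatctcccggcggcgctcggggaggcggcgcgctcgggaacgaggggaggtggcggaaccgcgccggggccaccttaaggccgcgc
CDKN2C: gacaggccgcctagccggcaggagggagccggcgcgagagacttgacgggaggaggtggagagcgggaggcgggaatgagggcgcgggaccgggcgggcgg
CDKN2D: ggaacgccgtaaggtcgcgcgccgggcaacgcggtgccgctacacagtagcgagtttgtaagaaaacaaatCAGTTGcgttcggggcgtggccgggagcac
They lie at chr6:42048835-42048935 (minus strand), chr12:12717181-12717281 (plus), chr1:50968506-50968606 (plus) and chr19:10569031-10569131 (minus), and capitals again mark CANNTG. That motif was in 68.7% of all promoter windows, in 61.0% with a BHLHE40 summit and in 73.3% with no BHLHE40 region. A CANNTG other than CACGTG therefore does not by itself mark a BHLHE40 site. The letters GC made up 62.3% to 72.3% of the 4 promoter windows that hold these summits. The motif AGATAA, to which GATA3 is known to bind, was in none of the 13 promoter windows of the members and in 10.3% of all windows. TGATAA was in 1 window, at a start inside the RB1 record, and in 7.53% of all. None of the 13 windows overlapped a GATA3 region, so they do not show whether GATA3 regions at these genes hold either motif.

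CDKN2C (record chr1:50960745-50974634, plus strand), which encodes p18, had CACGTG before 2 of its 3 listed starts.
CDKN2C, first start: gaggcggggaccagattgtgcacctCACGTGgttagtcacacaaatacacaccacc
CDKN2C, last start: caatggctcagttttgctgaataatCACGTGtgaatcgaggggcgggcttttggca
These stretches, chr1:50960500-50960555 and chr1:50970151-50970206 on the plus strand, both lie within a BHLHE40 region, but away from its summit. The first match was 160 bp and the second 1620 bp from the summit of the region that overlaps its window. The BHLHE40 region at the first start, chr1:50959973-50960799, had a signal value of 11.96 and its summit 380 bp upstream. That summit was nearer to the start of FAF1, 98 bp away, so position does not assign the region or its CACGTG to CDKN2C. The one at the inner starts, chr1:50967939-50970678, had a signal value of 8.35. H3K27ac overlapped all 4 BHLHE40 regions of the CDKN2C window. The only GATA3 region there lay 31.1 kb upstream, had a signal value of 9.16 and overlapped neither of the other lists. So 0 GATA3 regions overlapped BHLHE40 in this window.

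The D cyclins fell into separate patterns. CCND1, the cyclin most used outside the lymphoid lineages, had no region of any list within 1 kb of either end of its record (chr11:69641156-69654474). Its BHLHE40 region inside the record, chr11:69642533-69643739, had a signal value of 11.0, its summit 2262 bp from the lower end, and no H3K27ac. The other BHLHE40 region, chr11:69674509-69675712 with a signal value of 12.4, and the strongest H3K27ac region of the window (signal value 11.2, the strongest 1.53% of that list) had summits 36 and 100 bp from the start of LTO1. LTO1, not CCND1, was thus the gene with the nearest start.

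CCND2 (record chr12:4273762-4305353) carried both factors just outside its lower end, where the H3K27ac regions were weak or moderate. The GATA3 region chr12:4272221-4273016 had a signal value of 20.9, and the BHLHE40 region chr12:4271582-4273266 over it a signal value of 8.94, with summits 21 bp apart and 1192 and 1171 bp from the record. A stronger BHLHE40 region, chr12:4269281-4269869, lay 4166 bp from the record with a signal value of 21.3 and no GATA3. H3K27ac regions touched both places at signal values of 3.19 and 5.40. The strongest H3K27ac region of the window (8.43) had its summit 251 bp from the start of the neighbouring gene TIGAR. It overlapped both factor regions at the second place where GATA3 and BHLHE40 overlapped.

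CCND3 (record chr6:41934933-42050035, minus strand), the D cyclin of developing T cells, had the most regions of the 3. Its strongest BHLHE40 region, chr6:42048352-42049249 ranked in the top 8.33% by its signal value of 23.8; its summit lay 197 bp upstream of an inner start, and it overlapped H3K27ac but no GATA3. The strongest GATA3 region, chr6:41936061-41936756 with a signal value of 52.9 (strongest 4.54%), lay toward the other end of the gene. It was 1.48 kb from the lower end of the record, but only 2791 bp downstream of the nearest listed start. A BHLHE40 region with a signal value of 18.7 covered this GATA3 region, with the summit 41 bp away. Over the listed start at chr6:41941808 BHLHE40 was weak (4.55), with 95.6% of its list as strong or stronger. That summit was 130 bp upstream of the start. The BHLHE40 region there overlapped H3K27ac regions of 2.59 and 3.85 but no GATA3. Of 9 GATA3 regions at CCND3, 6 overlapped BHLHE40 and 5 overlapped both BHLHE40 and H3K27ac. The strongest H3K27ac region (12.04) lay just beyond the 5′ end, 634 bp from the CCND3 start and 145 bp from an end of the TAF8 record, so the distance alone does not assign it.

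**Figure D3:**
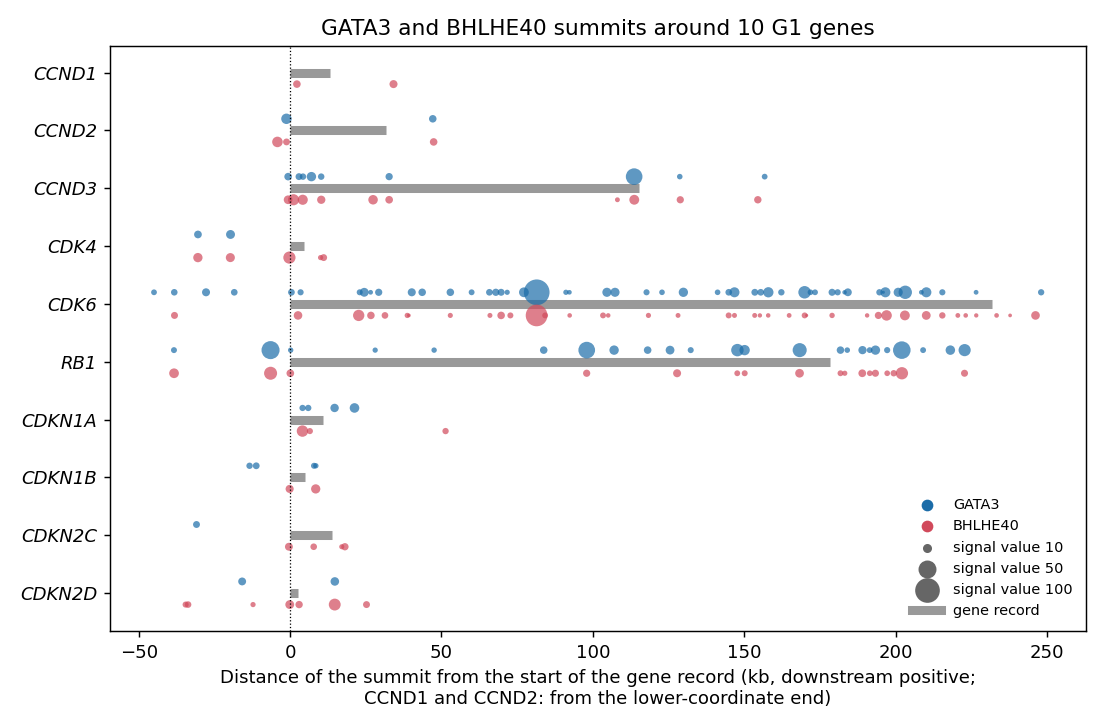
Summits of GATA3 (upper points) and BHLHE40 (lower points) around each gene, in kb from the start of the record (for CCND1 and CCND2 from the lower-coordinate end), with point area proportional to the authors' signal value and the record as a grey bar. CDK6 and RB1 carry the most points, with the largest pair inside CDK6, while CDKN1B, CDKN2C and CDKN2D have BHLHE40 but not GATA3 at the start.

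CDK6 (record chr7:92604921-92836573, minus strand), the other kinase partner of the D cyclins, held the strongest factor regions of the members. The GATA3 region chr7:92754371-92755644 had a signal value of 127 and ranked 122 of 29009. The BHLHE40 region chr7:92754149-92755710 over it had a signal value of 90.5 and ranked 62 of 26205. Their summits lay 41 bp apart, inside the gene and 81.4 kb downstream of its 5′ end. The H3K27ac region at this place had a signal value of 4.64, within the strongest 13.6% of its list, so the rank of the acetylation was lower than that of the factors.

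The remaining CDK6 regions were mostly weak by signal value. The median was 8.52 for GATA3 and 5.31 for BHLHE40, beside 11.2 and 9.35 over the whole lists. The next GATA3 regions, at chr7:92631287-92634020 and chr7:92666201-92666909, had signal values of 34.3 and 29.99. The next BHLHE40 region, chr7:92812381-92814782 with a signal value of 24.5, lay 22.7 kb from the 5′ end. Of the 51 GATA3 regions 46 had their summit inside the record, 28 overlapped BHLHE40, 28 overlapped H3K27ac and 21 overlapped both.

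The inner of the 2 listed starts of CDK6 was covered by a wide BHLHE40 region, chr7:92831618-92836327, which was 4710 bp across with a signal value of 14.1. Its summit lay 20 bp downstream of that start, and the region did not reach the outer start. The summit of a GATA3 region (signal value 8.59) lay 454 bp downstream of the outer start. The strongest H3K27ac region within 1 kb of these starts had a signal value of 2.94, although its −log10 q was 26.2. That pairing of a low signal value with a high −log10 q recurred along the gene.

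At CDK6 the −log10 q was high for the signal value, most clearly for the factors. This comparison was chosen after the values were seen. A peak's q-value depends on how many reads it holds as well as on its enrichment. Each region was therefore ranked by −log10 q among the regions of its list with a signal value within 10% of its own. The median percentile at CDK6 was 96.6 for GATA3 (51 regions), 95.2 for BHLHE40 (39 regions) and 94.0 for H3K27ac (71 regions). Over the whole lists it was 50.5, 50.8 and 41.3, and RB1, with the next most regions, had 73.1, 66.0 and 88.1. For H3K27ac CCND3 was also close, at 87.1 over 18 regions, and for GATA3 CDK4 had 81.9 over 2 regions.

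On this scale the bin around CDK6 stood apart from the bins beside it. In the 500 kb bin around the middle of CDK6 the medians were 95.5, 94.4 and 92.4 for GATA3, BHLHE40 and H3K27ac, over 57, 44 and 90 regions. In the bin below they were 30.2, 37.99 and 43.9, and in the bin above 26.9, 57.0 and 43.2. The neighbouring bins held only 2 to 7 regions of each factor, but 32 and 46 H3K27ac regions. Within the CDK6 record 37 of 46 GATA3, 22 of 35 BHLHE40 and 35 of 56 H3K27ac regions stood above a percentile of 90. From 50 to 250 kb above the record 1 of 3, 0 of 1 and 0 of 16 did so. The same distance below it the numbers were 3 of 5, 2 of 6 and 7 of 18. Within 50 kb above the record they were 1 of 4, 0 of 1 and 1 of 6. Within 50 kb below it they were 1 of 1, 3 of 3 and 7 of 9. The high values thus reached past the record on the lower side, where the edge was less sharp. Regions at CDK6 were also wide, with medians of 797 bp for GATA3 and 1183 bp for BHLHE40, beside 596 and 739 bp over the lists. This was not particular to CDK6, since the medians were 682 and 814 bp at RB1 and 692 and 949 bp at the other 8 genes. The lists give no read depth or copy number, and the part of either in the number of CDK6 regions was not tested.

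**Figure D4:**
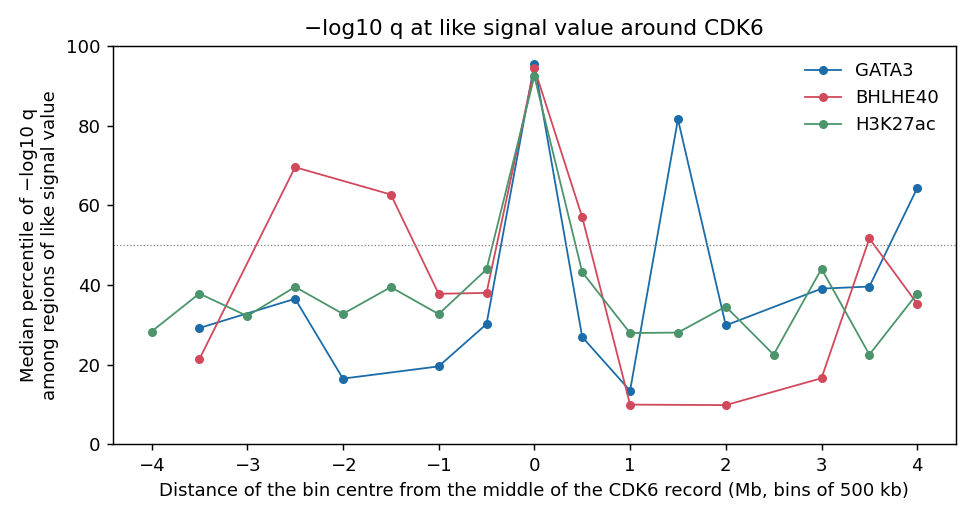
Median percentile of −log10 q among regions of the same list with a signal value within 10%, in bins of 500 kb, against distance from the middle of CDK6 in Mb; bins with no region are left out. All 3 lists are above 92 in the bin at CDK6, and H3K27ac, the list with most regions, is at 43.9 and 43.2 in the bins beside it.

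RB1 (record chr13:48303751-48481890, plus strand), the substrate of these kinases, had its strongest GATA3 and BHLHE40 regions away from its start, whereas its strongest H3K27ac region lay at the start. A GATA3 region at chr13:48296190-48298064 with a signal value of 62.5 (strongest 3.16%) lay 6441 bp upstream of the record. The BHLHE40 region there had a signal value of 32.5, with its summit 13 bp away, and H3K27ac had 6.62. A second pair, with signal values of 59.1 for GATA3 and 29.1 for BHLHE40 and summits 34 bp apart, lay 23.9 kb beyond the far end of RB1, inside the record of RCBTB2. Another GATA3 region, chr13:48400951-48402541 with a signal value of 53.3, lay inside RB1 and also inside the overlapping record of LPAR6, over a BHLHE40 region of 9.96. These are the 3 strongest GATA3 regions of the window, at 3.16%, 3.60% and 4.48% of their list, and BHLHE40 there stood at 4.21%, 5.45% and 45.5% of its own. At the third strongest BHLHE40 region, chr13:48265102-48265720, the order was the reverse, with BHLHE40 at 15.3% and GATA3 at 87.0%.

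The start of RB1 looked different. BHLHE40 (signal value 11.2, summit 91 bp downstream) and a strong H3K27ac region (7.21, with a −log10 q of 137) lay over it. GATA3 there was among the weakest of its list, with a signal value of 5.56 and 95.3% of regions as strong or stronger. Of 24 GATA3 regions at RB1, 14 overlapped BHLHE40, and of the 17 BHLHE40 regions 14 overlapped GATA3. Their summits lay a median of 31.5 bp apart.

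**Figure D5:**
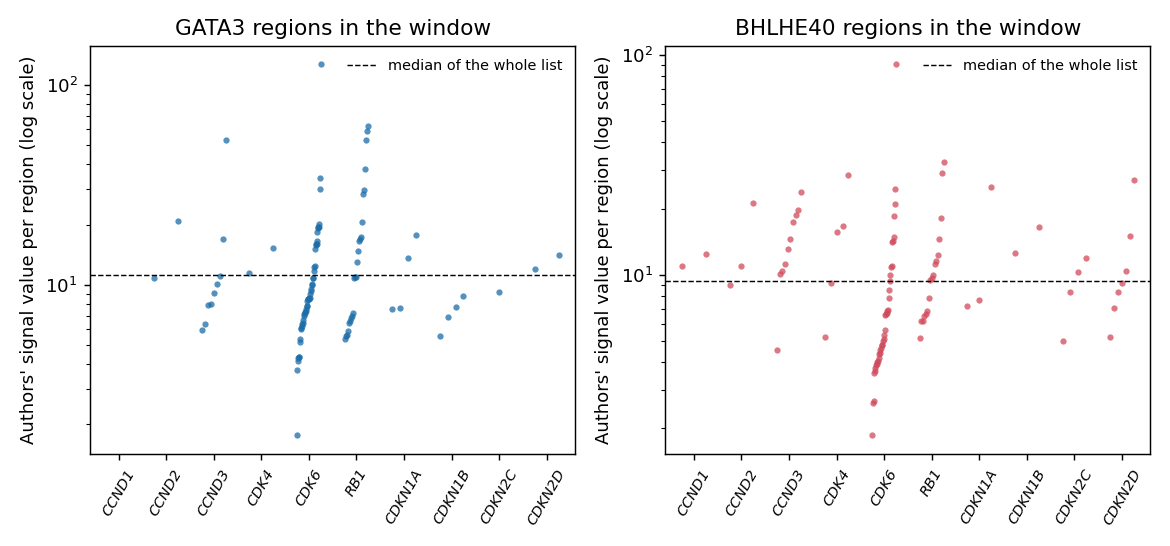
Signal value of each GATA3 (left) and BHLHE40 (right) region in the window of each gene, on a log scale, 1 point per region in order of value; the dashed line is the median of the whole list (11.2 and 9.35). CDK6 spans from 1.76 to 127 for GATA3, RB1 and CCND3 have the next strongest GATA3 regions, and the 4 inhibitors have no GATA3 region above 17.7.

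The inhibitors had 1 to 4 GATA3 regions each, and only CDKN1A had any with the summit inside its record. CDKN1A (record chr6:36676463-36687332, plus strand), which encodes p21, had neither factor within 1 kb of its starts, although a region of each lay within 2 kb. Its strongest BHLHE40 region, chr6:36679748-36680981 reached a signal value of 25.0 (strongest 7.58%). Its summit lay inside the gene, 1844 bp downstream of the inner start. A weak GATA3 region (7.52) lay at the same place, with the summit 35 bp away. The H3K27ac region that overlapped it had a signal value of 3.52 and a −log10 q of 4.86. In the window 1 of 6 H3K27ac regions reached a −log10 q of 5, beside 28551 of 113570 in the whole list. The strongest GATA3 region (17.7) lay 82 bp from an end of the RAB44 record.

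CDKN1B (record chr12:12717368-12722369, plus strand), which encodes p27, had BHLHE40 but not GATA3 at its start. The BHLHE40 region chr12:12716681-12718032 had a signal value of 12.6 and its summit 137 bp upstream. Its GPR19 neighbour has a record end 15 bp from that summit, so the region cannot be given to 1 of the 2 genes by position. H3K27ac lay on both sides of the start, with signal values of 3.54 and 3.95. The stronger BHLHE40 region (16.4) lay 75 bp from the start of APOLD1, together with GATA3 regions of 6.94 and 5.52.

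CDKN2D (record chr19:10566460-10568979, minus strand), which encodes p19, had 7 BHLHE40 regions in its window of 103 kb, and all 7 overlapped H3K27ac. The one over its start, chr19:10567682-10569731, had a signal value of 14.9 and its summit 102 bp upstream, and H3K27ac beside it had 8.41 (strongest 3.72%). The strongest (27.05, within the top 6.42%) lay inside the record of KRI1, 12.2 kb away, with a GATA3 summit 30 bp from its own. The other GATA3 region (11.96) overlapped neither list. By nearest record, 1 of the 7 BHLHE40 regions belonged to CDKN2D.

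Pooled over the 10 windows, the overlaps were close to those of the whole lists. Of 99 GATA3 regions 56 overlapped BHLHE40 (56.6%, 95% Wilson interval 46.7% to 65.9%), beside 48.7% of the list. Of 92 BHLHE40 regions 53 overlapped GATA3 (57.6%, 47.4% to 67.2%), beside 53.0%. H3K27ac overlapped 54.5% of the GATA3 regions (44.8% to 64.0%) and 71.7% of the BHLHE40 regions (61.8% to 79.9%), beside 49.1% and 76.4%. When the summit had to lie inside the H3K27ac region these shares were 30.3% and 48.9%. These intervals cover counting only, and regions of 1 window are not independent. Each held the value of the whole list. GATA3 regions that overlapped BHLHE40 had H3K27ac in 76.8% of 56 cases and the others in 25.6% of 43, beside 77.4% and 22.3% in the whole list.

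The share that overlapped the other factor varied more between genes for BHLHE40 than for GATA3, a description made after the values were seen and not tested. Of the GATA3 regions 54.9% at CDK6, 58.3% at RB1 and 58.3% at the other 8 genes overlapped BHLHE40. At CDK6 and RB1, 66.7% of 39 and 82.4% of 17 BHLHE40 regions overlapped GATA3, and 59.0% and 58.8% overlapped H3K27ac. At the other 8 genes 36.1% of 36 BHLHE40 regions overlapped GATA3 and 91.7% overlapped H3K27ac. Of those 36, 16 had the summit within 1 kb of a start or unstranded end of another protein-coding gene, and 8 had it within 1 kb of a start of the member. For the 39 and 17 regions of CDK6 and RB1 the number near another gene was 1 and 0, and near the member's own start 1 and 1. The windows hold unlike numbers of other protein-coding genes: 1 at CDK6, 4 at RB1 and 1 to 9 at the other 8 genes. These counts were not adjusted for that, and no share over the whole list was computed. Summits of GATA3 and BHLHE40 that overlapped lay a median of 44.5 bp apart over all 56 places, and 31 were within 50 bp. Such distances were not computed over the whole lists, so neither these nor the RB1 median can be called particular to these genes.

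The rest of the pathway was read from a list of 24 genes: E and A cyclins, CDK2, the CDK-activating kinase, further inhibitors, RB1 relatives, E2F and DP factors and regulators of p27 and CDC25. BHLHE40 lay within 1 kb of a start in 18 of 24, H3K27ac in 20 and GATA3 in 5, beside the backgrounds of 47.7%, 56.1% and 22.7%. The 5 with GATA3 were CCNA2, MNAT1, E2F3, TFDP2 and SKP2, of which 2 had one with a deposited score of at least 830 on the scale that ends at 1000. CCNE1 and MNAT1 had no BHLHE40 and only H3K27ac regions with a −log10 q under 5 (3.48 and 4.10). At a −log10 q of at least 5, H3K27ac was at 18 of 24, and the 6 genes without it were those without BHLHE40. CDKN1C, CDKN2A, CDKN2B and TFDP1 had no region of any list at a start. FBXW7, which encodes the receptor of a ubiquitin ligase for cyclin E, had the strongest BHLHE40 region at a start in this list (signal value 42.9, strongest 2.13%). At CDKN2A and CDKN2B, which encode p16 and p15, the windows of 50 kb each side held 0 regions of all 3 lists. Jurkat cells are known to carry a deletion of this locus, and copy number was not measured here.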

How the data were processed

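ChIP-seq regions of 3 groups of 2 stimulated Jurkat samples were used, of 38 samples in 19 groups formed from the titles. Per the submitters' processing notes, which give no role or order, bcl2fastq 2.20, cutadapt 2.5, Bowtie2, MACS2 2.1.0 and GRCh38/hg38 were used. The deposited lists follow the narrowPeak layout. The factor lists are named for an irreproducible discovery rate threshold of 0.05, which keeps regions whose ranks repeat between samples, and the deposited score ran from 540 to 1000. The H3K27ac list is named as pooled, and many of its regions have a low −log10 q. The signal value and the −log10 q of each region are the authors' values, and what the signal value is relative to is not stated. Depth per sample is unknown, which leaves the precision of each value unknown, and a deeper sample would list more weak regions.

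A region was counted where it overlapped, by at least 1 bp, the window of 50 kb on each side of a gene record of the RefSeq table (GRCh38.p14). Promoters and strands came from the RefSeq promoter table, which matched 8 of 10 members, not CCND1 and CCND2. All 20050 protein-coding genes on the lists' chromosomes gave the background. The 10 members were all named, with up to 3 strongest regions per list and the region at the start. Genes of the pathway list were named where a list had no region, or a factor region of the strongest 5%, at the start. For GATA3, where most had none, those with a region were named instead. Members and lists were chosen with earlier results of these data known. The overlap search made 0 errors on 5000 simulated regions. Alternatives changed the window, the score or q, the overlap and the genes. Scripts ran in Python 3.11.15 with pandas 2.3.3 and numpy 2.4.6. Intervals used scipy 1.17.1 and plots matplotlib 3.10.9.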

Additional observations from a re-analysis of the deposited data

How the results depend on the processing

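Over 14 results, 56 alternatives were computed, 54 planned and 2 added after seeing the data, and 41 kept the value within 1.5 times or within its interval. The numbers of regions followed the window, the threshold and CDK6. Without CDK6 they fell to 48 for GATA3, 53 for BHLHE40 and 124 for H3K27ac. With the gene record alone BHLHE40 gave 58 and H3K27ac 103, and H3K27ac gave 129 with 10 kb each side, 87 with a −log10 q of at least 5 and 121 where the member was the nearest protein-coding record. The share of regions on H3K27ac was 30.3% for GATA3 and 48.9% for BHLHE40 when the summit had to lie inside, and 37.4% and 59.8% at a −log10 q of at least 5. It was 81.1% for BHLHE40 without CDK6. The share of BHLHE40 regions on GATA3 was 36.1% without CDK6 and RB1. Of the pathway list 2 genes had GATA3 at the start with a score of at least 830, beside 5 without that threshold. That score was reached by 22102 of the 29009 GATA3 regions. The cause of these changes was not tested. At starts, counts of members moved by at most 2: BHLHE40 was at 10 and H3K27ac at 9 of 10 with 2 kb each side. The share of all protein-coding genes was not computed for 2 kb, so these counts cannot be set beside the backgrounds for 1 kb.

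No paired analysis was possible because the authors deposited a single list for the samples of a group, with no column for either. Fits without 1 replicate could not be made from such lists.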

Other observations

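Several of the strongest regions in these windows lay at genes next to the members. The strongest H3K27ac region of all 10 windows, with a signal value of 21.5 (strongest 0.101% of its list), lay in the CDK4 window, 119 bp from an end of the record of METTL1, a tRNA methyltransferase gene. In the CDK6 window the strongest H3K27ac region (7.78, with a −log10 q of 245) lay 130 bp from the start of FAM133B. Of the 195 H3K27ac regions 121 had the member as the nearest protein-coding record, and for BHLHE40 and GATA3 this held for 62 of 92 and 73 of 99.

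A GATA3 region inside CDK6, chr7:92640601-92640836, had the lowest GATA3 signal value of the members (1.76) and a −log10 q of 1.71, with a score of 1000, the highest in the list. A BHLHE40 region inside CDK6, chr7:92665889-92666129, likewise paired a signal value of 1.86 and a −log10 q of 1.72 with a score of 1000.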
